A study of Homo sapiens with 6 samples.

Results

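The genes described here act at the G1/S transition and in DNA replication. A list of 38 gene symbols was used, covering origin licensing, the replication fork, nucleotide supply, the G1/S cyclins and their regulators, and the RecQ helicases. Rows of the deposited table whose platform annotation gives 1 of these symbols were taken, which found 28 of the 38 genes among 14884 genes with a named row. The other 10 (ORC1, ORC6, POLA1, POLE2, PRIM1, RFC3, RFC4, CDKN1B, BLM and WRN) are not analysed here. Of the 28 genes, 27 were bright enough to be tested, and the D-type cyclin CCND3 was not.

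The arrays came from A549, an established human lung adenocarcinoma line, harvested 48 hours after siRNA transfection with a lipid reagent. The groups were MYEOV siRNA 1 (2 arrays), MYEOV siRNA 2 (2 arrays) and a control siRNA labelled siNC (2 arrays), so all 6 arrays came from transfected cells. MYEOV is a gene first found overexpressed in myeloma, and the comparisons ask what changes when it is lowered. The sources used here do not give the siRNA sequences or what the control is directed at. Nothing in the labels ties the 2 arrays of a group to separate transfections, so p-values measure only array-to-array spread, which may be technical.

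Values are log2 RMA signals, and differences are log2 fold changes with their standard error (SE) from limma over all 6 arrays, with n = 2 arrays per group throughout. The threshold for calling a gene was an adjusted p (Benjamini-Hochberg, over the 7442 genes tested) below 0.05. Signals of different genes come from different probes and are not set against each other. Since bulk RNA was measured, fewer cells in S phase and less RNA per cell cannot be told apart.

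MYEOV itself read 5.34 and 5.19 with siRNA 1, 5.23 and 4.70 with siRNA 2, and 6.20 and 6.50 with the control siRNA, so both siRNA groups lay below the control. The fit gave -1.09 ± 0.18 (SE, adjusted p = 0.0215) for siRNA 1 and -1.39 ± 0.18 (adjusted p = 0.00516) for siRNA 2. MYEOV had a mean of 5.53 over the 6 arrays, just above the 5.45 needed to be tested. It reached this through the control arrays (mean 6.35), as its siRNA groups averaged 5.27 and 4.96. With no filter on dim genes the siRNA 1 call was lost (adjusted p = 0.135) and the siRNA 2 call was kept. The siRNA 1 call was lost without either control array or either siRNA 1 array (adjusted p up to 0.146). The array medians over all rows lay between 4.082 and 4.103. Of 8 epithelial and A549 markers, 4 had a row (KRT8, KRT18, KRT19 and EPCAM) and all were bright enough to be tested, with array values between 5.30 and 12.09. Of 13 markers of fibroblasts, leukocytes, endothelium and hepatocytes, 5 had a row, none was bright enough to be tested, and their array values lay between 2.22 and 5.34.

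Before S phase, the origin recognition complex, CDC6 and CDT1 load the MCM2 to MCM7 ring onto DNA as an inactive helicase. Cyclin D with CDK4 or CDK6, and then cyclin E with CDK2, release E2F factors from the retinoblastoma protein RB1. E2F raises transcription of the genes that load, fire and feed the forks, and CDC45 and the GINS complex turn the loaded ring into the active helicase. In proliferating tumour lines such as A549 these genes are expressed in cycling cells.

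Promoter windows of RefSeq (GRCh38.p14), from 250 bases before to 50 bases after a gene's start, were searched on both strands for 4 forms of the E2F site, TTTCCCGC, TTTCGCGC, TTTGCCGC and TTTGGCGC. Of the 23 measured genes of the list with a window, 14 held a match, or 60.9%, against 3.99% of all 27305 genes with a window. This describes the letters of these windows and does not show binding. CCNE1, RRM2 and RECQL, described below, held no match in their windows, and CCNE2 had no window here. The following 30-base stretches are shown because they belong to loading factors, GINS subunits and regulators whose levels are given below. Each runs 5′ to 3′ along the gene's own strand, and the capitals mark the site.

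MCM2, chr3:127598402-127598431, plus strand: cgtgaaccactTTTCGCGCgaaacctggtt

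CDC6, chr17:40287875-40287904, plus strand: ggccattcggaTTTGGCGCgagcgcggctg

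GINS1, chr20:25407667-25407696, plus strand: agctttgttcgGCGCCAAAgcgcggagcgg

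GINS3, chr16:58392455-58392484, plus strand: cgtccccgggcGCGGGAAAcgagtttcaat

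CDC25A, chr3:48188443-48188472, minus strand: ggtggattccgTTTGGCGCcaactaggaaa

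E2F1, chr20:33686400-33686429, minus strand: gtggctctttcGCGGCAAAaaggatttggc

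E2F1, chr20:33686387-33686416, minus strand: ggcaaaaaggaTTTGGCGCgtaaaagtggc

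In GINS1, GINS3 and the first of the E2F1 stretches the site reads on the opposite strand, so the capitals show its reverse complement. The site of CDC25A began 44 bases before the start, at position -44, those of E2F1 at -33 and -20 and that of GINS3 at -5. The sites of MCM2, CDC6 and GINS1 lay just inside the transcribed part, at positions 3, 8 and 6, counted from 1 at the first transcribed base. The match in MCM2 overlaps a match to the same letters on the opposite strand.

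With siRNA 1, 1 of the 27 tested genes was called, the phosphatase CDC25A, which was lower. Called genes made up 2.38% of all tested genes in the lower direction and 2.28% in the higher, where 0 genes of the list were called by limma. At an unadjusted p under 0.05, 2 genes of the list were higher and 6 lower, against 9.82% and 9.39% of all tested genes. Both arrays lay above both control arrays for 3 genes of the list and below them for 11, where each direction held 24.4% of all tested genes. The median log2 fold change of the 27 genes was -0.10, and 21 were below 0, against a median of -0.00 and 50.8% below 0 among all tested genes. The list was chosen with earlier results known, so its direction carries no test.

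With siRNA 2, 4 of the 27 genes were called. RECQL, GINS1 and CCNE1 fell, and CCNE2 rose. Over all tested genes 4.23% were called lower and 2.59% higher. At an unadjusted p under 0.05, 3 genes of the list were higher and 8 lower, against 10.2% and 12.0% of all tested genes. Both siRNA 2 arrays lay above both control arrays for 3 genes and below them for 11, against 25.0% and 25.6% of all tested genes. The median of the list was -0.07, with 20 genes below 0, against a median of 0.00 and 49.8% below 0 among all tested genes.

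Set against siRNA 2, siRNA 1 gave 5 called genes, with RECQL and GINS1 higher and CCNE2, CDC25A and RRM2 lower. Of all tested genes 5.37% were called higher and 3.78% lower in this comparison. At an unadjusted p under 0.05, 3 genes of the list were higher and 5 lower, against 13.0% and 10.6%. The groups did not overlap for 7 genes higher and 7 lower, where 27.1% and 27.5% of all tested genes stood apart. The median of the list was -0.05, with 15 genes below 0, against 50.1% below 0 among all tested genes. Each siRNA against the control uses the same 2 control arrays, so the 2 sets of differences from it are not independent.

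**Figure D1:**
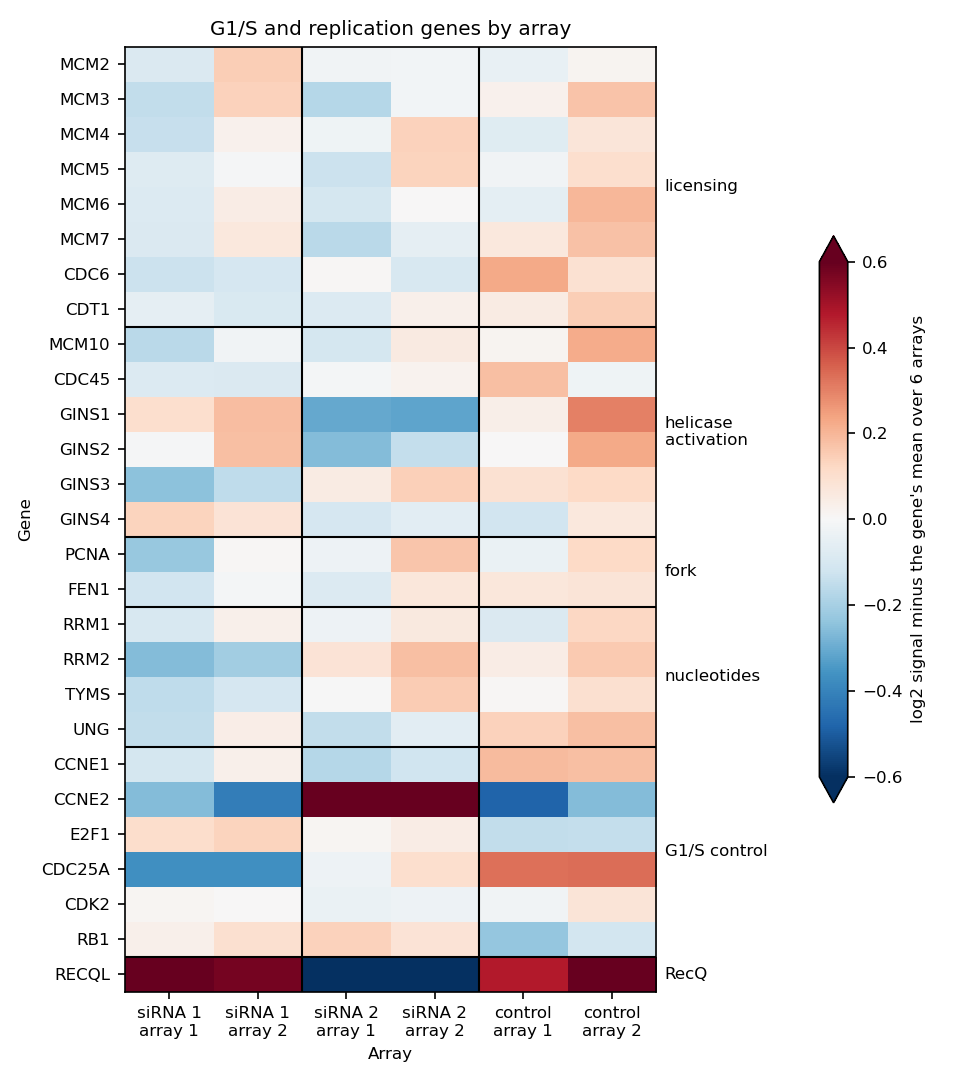
Log2 signal of the 27 tested genes minus each gene's mean over the 6 arrays (colour, cut at 0.6 in each direction), in rows by role, with the siRNA 1, siRNA 2 and control arrays in columns. RECQL is blue and CCNE2 red in both siRNA 2 arrays, and CDC25A is blue in both siRNA 1 arrays, while most MCM rows are pale.

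Gene by gene centred on its own mean, the median of the list was -0.10 and 0.03 in the siRNA 1 arrays, -0.04 and 0.03 in the siRNA 2 arrays, and 0.02 and 0.12 in the control arrays. The higher array of each siRNA lay above the lower control array, so the groups overlapped on this summary. Among arrays with the same number in the labels, each siRNA array lay below the control array. Nothing in the labels says what a number marks, and this order was not tested. The median spread between arrays of a group was an SD of 0.0862 for these genes and 0.0819 for all tested genes.

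Among the loading factors, 0 of 8 were called with either siRNA by limma. Of all tested genes, 2.28% were called higher and 2.38% lower with siRNA 1, and 2.59% and 4.23% with siRNA 2. At an unadjusted p under 0.05, 1 loading factor was lower with siRNA 1 and 2 with siRNA 2, against 9.39% and 12.0% of all tested genes. The 6 ring subunits stayed close to the control. MCM2 read 8.52 and 8.76 with siRNA 1, 8.59 and 8.59 with siRNA 2, and 8.56 and 8.63 with the control siRNA, so the groups overlapped. MCM3 read 9.19 and 9.48 with siRNA 1, 9.17 and 9.32 with siRNA 2, and 9.36 and 9.51 with the control. MCM4 read 9.64 and 9.80 with siRNA 1, 9.75 and 9.91 with siRNA 2, and 9.70 and 9.85 with the control. In MCM3 both siRNA 2 arrays were below both control arrays, and the other contrasts of MCM3 and MCM4 with the control overlapped. MCM5 read 8.62 and 8.68 with siRNA 1, 8.56 and 8.83 with siRNA 2, and 8.67 and 8.79 with the control. MCM6 read 8.87 and 8.99 with siRNA 1, 8.85 and 8.95 with siRNA 2, and 8.89 and 9.15 with the control, and both genes overlapped between all groups. MCM7 read 9.82 and 9.97 with siRNA 1, 9.74 and 9.85 with siRNA 2, and 9.97 and 10.08 with the control, and its siRNA 2 arrays were below both control arrays. Its log2 fold change with siRNA 2 was -0.23 ± 0.09 (adjusted p = 0.183). Over MCM2 to MCM7, log2 fold changes ran from -0.13 to 0.05 with siRNA 1 and from -0.23 to 0.05 with siRNA 2, with adjusted p from 0.479 to 0.834 and from 0.183 to 0.991. The 95% confidence intervals reached from -0.37 to 0.26 with siRNA 1 and from -0.46 to 0.28 with siRNA 2. Shifts of a ring subunit inside its own interval were not excluded.

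CDC6, an ATPase that loads the ring, read 8.91 and 8.94 with siRNA 1, 9.05 and 8.94 with siRNA 2, and 9.27 and 9.13 with the control siRNA. Both siRNA groups were below the control without overlap. The log2 fold changes were -0.28 ± 0.08 (adjusted p = 0.110) and -0.20 ± 0.08 (adjusted p = 0.186), so neither was called. CDT1, the partner of CDC6 in loading, read 7.85 and 7.81 with siRNA 1, 7.82 and 7.93 with siRNA 2, and 7.95 and 8.05 with the control. It was also below both control arrays with each siRNA, at -0.17 (adjusted p = 0.280) and -0.12 (adjusted p = 0.407).

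Of the factors that activate the helicase, GINS1 was called. The GINS complex has 4 subunits, all on the list and all tested, and GINS1 was the only one of them called against the control. Of all tested genes, 2.28% were called higher and 2.38% lower with siRNA 1, and 2.59% and 4.23% with siRNA 2. GINS1 (also called PSF1) read 9.57 and 9.65 with siRNA 1, 9.16 and 9.15 with siRNA 2, and 9.50 and 9.77 with the control siRNA. Only its siRNA 2 arrays stood apart. With siRNA 2 it fell by 0.48 ± 0.10 against the control (adjusted p = 0.0343), a percent change of -28.3, with a 95% confidence interval of -0.71 to -0.25 on the log2 scale. The difference from siRNA 1 was 0.46 (interval 0.23 to 0.69, adjusted p = 0.0311). The fall was not called without control replicate 2, without either siRNA 2 array or with no filter on dim genes. It was also not called with siRNA 2 and the control fitted alone. Leaving out an siRNA 1 array gives that same fit. The difference between siRNAs was not called with no filter on dim genes or without any 1 of the 4 MYEOV siRNA arrays.

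GINS2 followed GINS1 in its order of groups, at 8.28 and 8.46 with siRNA 1, 8.02 and 8.14 with siRNA 2, and 8.29 and 8.51 with the control siRNA. Its siRNA 2 arrays were below all others, but the log2 fold change of -0.32 ± 0.11 was not called (adjusted p = 0.134). GINS3 had the other order, with 7.78 and 7.88 with siRNA 1, 8.08 and 8.18 with siRNA 2, and 8.12 and 8.15 with the control. Here the siRNA 1 arrays were the low ones, at -0.30 ± 0.07 against the control (adjusted p = 0.0685) and -0.30 against siRNA 2 (adjusted p = 0.0502), both just outside the threshold. GINS4 read 7.54 and 7.48 with siRNA 1, 7.30 and 7.34 with siRNA 2, and 7.29 and 7.46 with the control, with adjusted p of 0.437 and 0.759 against the control. A second, dim row of GINS4, between 3.14 and 3.71 on all arrays, was not used.

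CDC45, the third part of the active helicase, read 7.59 and 7.58 with siRNA 1, 7.65 and 7.69 with siRNA 2, and 7.85 and 7.64 with the control siRNA. MCM10, which helps start the helicase, read 9.14 and 9.28 with siRNA 1, 9.20 and 9.36 with siRNA 2, and 9.32 and 9.53 with the control. For both genes the siRNA 1 arrays were below the control arrays, at -0.16 (adjusted p = 0.368) and -0.21 (adjusted p = 0.312), and neither was called with siRNA 2.

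At the fork, PCNA, the sliding clamp of the polymerases, read 10.47 and 10.70 with siRNA 1, 10.67 and 10.86 with siRNA 2, and 10.66 and 10.82 with the control siRNA. FEN1, which trims Okazaki fragments, read 8.75 and 8.86 with siRNA 1, 8.79 and 8.94 with siRNA 2, and 8.94 and 8.95 with the control. Their log2 fold changes lay between -0.15 and 0.03 over both siRNAs, and 0 of the 2 were called by limma or had an unadjusted p under 0.05. Such an unadjusted p was found for 9.82% (higher) and 9.39% (lower) of all tested genes with siRNA 1, and for 10.2% and 12.0% with siRNA 2.

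Of the genes for nucleotide supply, RRM2, the regulated subunit of ribonucleotide reductase, differed between the siRNAs. It read 9.18 and 9.23 with siRNA 1, 9.52 and 9.62 with siRNA 2, and 9.48 and 9.60 with the control siRNA. The siRNA 1 arrays were the low ones. RRM2 was lower with siRNA 1 than with siRNA 2, at -0.36 ± 0.08 (interval -0.54 to -0.18, adjusted p = 0.0292). This call was lost with no filter on dim genes and without any 1 of the 4 MYEOV siRNA arrays. Against the control it had -0.33 ± 0.08 with siRNA 1 (adjusted p = 0.0604) and 0.03 with siRNA 2 (adjusted p = 0.865).

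RRM1, the large reductase subunit, read 9.79 and 9.92 with siRNA 1, 9.85 and 9.94 with siRNA 2, and 9.80 and 10.01 with the control siRNA, and its groups overlapped. TYMS, which makes thymidylate, read 9.94 and 9.99 with siRNA 1, 10.09 and 10.25 with siRNA 2, and 10.10 and 10.19 with the control. It lay in the order of RRM2, at -0.18 with siRNA 1 (adjusted p = 0.284) and -0.20 for siRNA 1 against siRNA 2 (adjusted p = 0.187). UNG, which removes uracil from DNA, read 8.61 and 8.79 with siRNA 1, 8.61 and 8.69 with siRNA 2, and 8.89 and 8.94 with the control. It was below both control arrays with each siRNA, at -0.21 (adjusted p = 0.227) and -0.27 (adjusted p = 0.120).

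Among the G1/S regulators, the E cyclins, which activate CDK2, moved in opposite directions with siRNA 2. CCNE2 read 5.84 and 5.69 with siRNA 1, 6.78 and 6.84 with siRNA 2, and 5.62 and 5.84 with the control siRNA. The siRNA 2 arrays were above all others and the remaining groups overlapped. CCNE2 rose by 1.08 ± 0.10 with siRNA 2 (adjusted p = 0.00133), a signal 2.11 times the control (interval on the log2 scale 0.85 to 1.31). With siRNA 1 the log2 fold change was 0.03 (interval -0.20 to 0.27, adjusted p = 0.894), and the difference between the siRNAs was -1.04 (adjusted p = 0.00116). It lies near the dim end of the tested genes, where RMA compresses differences.

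CCNE1 read 8.80 and 8.94 with siRNA 1, 8.73 and 8.78 with siRNA 2, and 9.09 and 9.08 with the control siRNA. All 4 MYEOV siRNA arrays were below both control arrays. It fell by 0.33 with siRNA 2 (SE 0.08, adjusted p = 0.0473). With siRNA 1 the value was -0.22 ± 0.08 (adjusted p = 0.164), and the siRNAs did not differ detectably, at 0.11 (interval -0.07 to 0.29, adjusted p = 0.450). The call with siRNA 2 lay at the threshold. It was lost with no filter on dim genes, every annotated row, quantile normalization and the 2 groups alone. Removal of either control array or either siRNA 2 array lost it as well. Removal of an siRNA 1 array gives the same fit as the 2 groups alone.

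CDC25A, the phosphatase that activates CDK2, read 7.42 and 7.42 with siRNA 1, 7.76 and 7.89 with siRNA 2, and 8.12 and 8.12 with the control siRNA. The 3 groups stood apart, with siRNA 1 lowest and the control highest. Against the control, siRNA 1 gave CDC25A a fall of 0.70 ± 0.07 (log2 fold change -0.70, interval -0.87 to -0.53, adjusted p = 0.00430), a percent change of -38.5. With no filter on dim genes its adjusted p was 0.0596. With siRNA 2 the value was -0.30 ± 0.07 (adjusted p = 0.0573), just outside the threshold, and it was called under 4 of the alternatives (adjusted p from 0.0166 to 0.0492). It was lower with siRNA 1 than with siRNA 2, at -0.40 (interval -0.57 to -0.23, adjusted p = 0.0179). This call was lost with no filter on dim genes, without either siRNA 1 array and without siRNA 2 replicate 2.

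**Figure D2:**
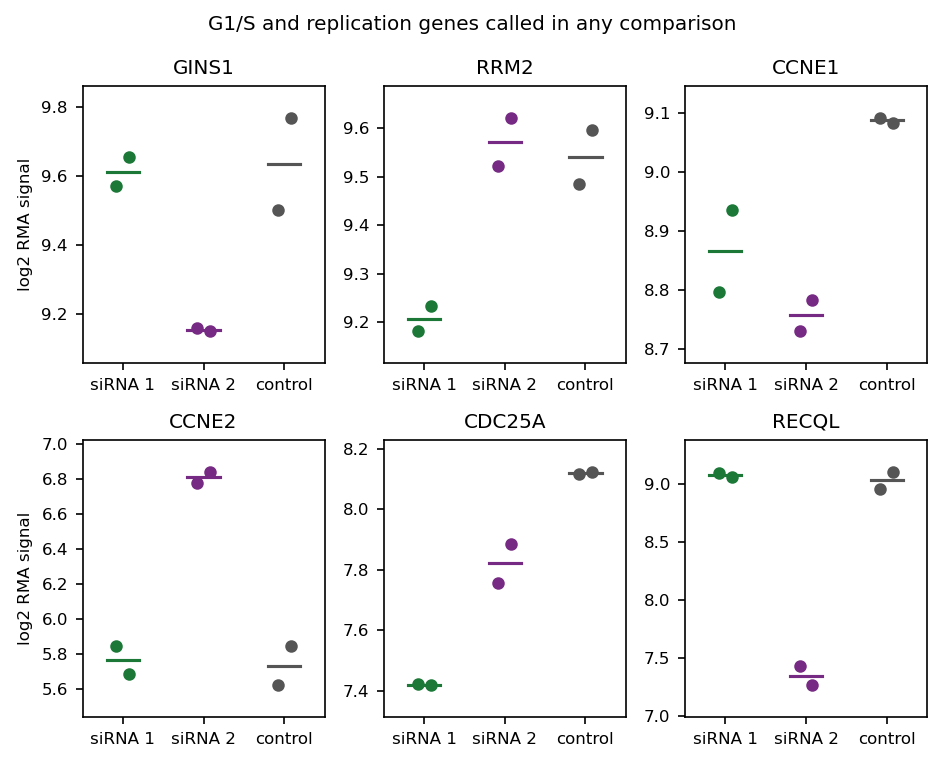
Log2 RMA signal (vertical axis, own range for each gene) of the 6 genes of the list called in any comparison, by group, with a point for each array and a line at the mean of 2 arrays. For RECQL, CCNE2 and GINS1 the siRNA 2 arrays stand apart, and for RRM2 the siRNA 1 arrays. For CDC25A and CCNE1 all 3 groups stand apart, with the control arrays highest.

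E2F1, the activating transcription factor, and RB1, which holds it in check, both read higher with each siRNA, and neither passed the threshold. E2F1 read 7.69 and 7.72 with siRNA 1, 7.59 and 7.63 with siRNA 2, and 7.43 and 7.44 with the control siRNA, at 0.27 ± 0.06 (adjusted p = 0.0716) and 0.17 ± 0.06 (adjusted p = 0.176). RB1 read 9.66 and 9.73 with siRNA 1, 9.77 and 9.72 with siRNA 2, and 9.40 and 9.52 with the control, at 0.23 ± 0.07 (adjusted p = 0.143) and 0.28 ± 0.07 (adjusted p = 0.0730). For both genes all 4 MYEOV siRNA arrays were above both control arrays. Other settings made some of these calls: E2F1 with siRNA 1 under a stricter filter on dim genes (adjusted p = 0.0230), and RB1 with siRNA 2 under that filter (adjusted p = 0.0239) and under a trended robust prior (adjusted p = 0.0217).

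CDK2, the kinase partner of cyclin E, read 9.13 and 9.12 with siRNA 1, 9.08 and 9.09 with siRNA 2, and 9.10 and 9.20 with the control siRNA. Its log2 fold changes were -0.02 (interval -0.18 to 0.14) and -0.06 (interval -0.22 to 0.10). CCND3 read 5.39 and 5.48 with siRNA 1, 5.30 and 5.57 with siRNA 2, and 5.34 and 5.48 with the control, a mean just under the filter at 5.45, with all groups overlapping.

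RECQL, a RecQ DNA helicase that acts in replication restart and genome stability, had the largest change of the list. It read 9.10 and 9.06 with siRNA 1, 7.43 and 7.26 with siRNA 2, and 8.96 and 9.11 with the control siRNA. Only the siRNA 2 arrays were low. The siRNA 2 log2 fold change of RECQL was -1.69 ± 0.09 (interval -1.90 to -1.48, adjusted p = 0.000154), a percent change of -69.0. With siRNA 1 the log2 fold change was 0.05 (interval -0.16 to 0.25, adjusted p = 0.823), and siRNA 1 exceeded siRNA 2 by 1.74 (interval 1.53 to 1.94, adjusted p = 0.000144). The calls with siRNA 2 against the control and between the siRNAs held under all 15 alternatives tried, though not all of these are separate fits.

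**Figure D3:**
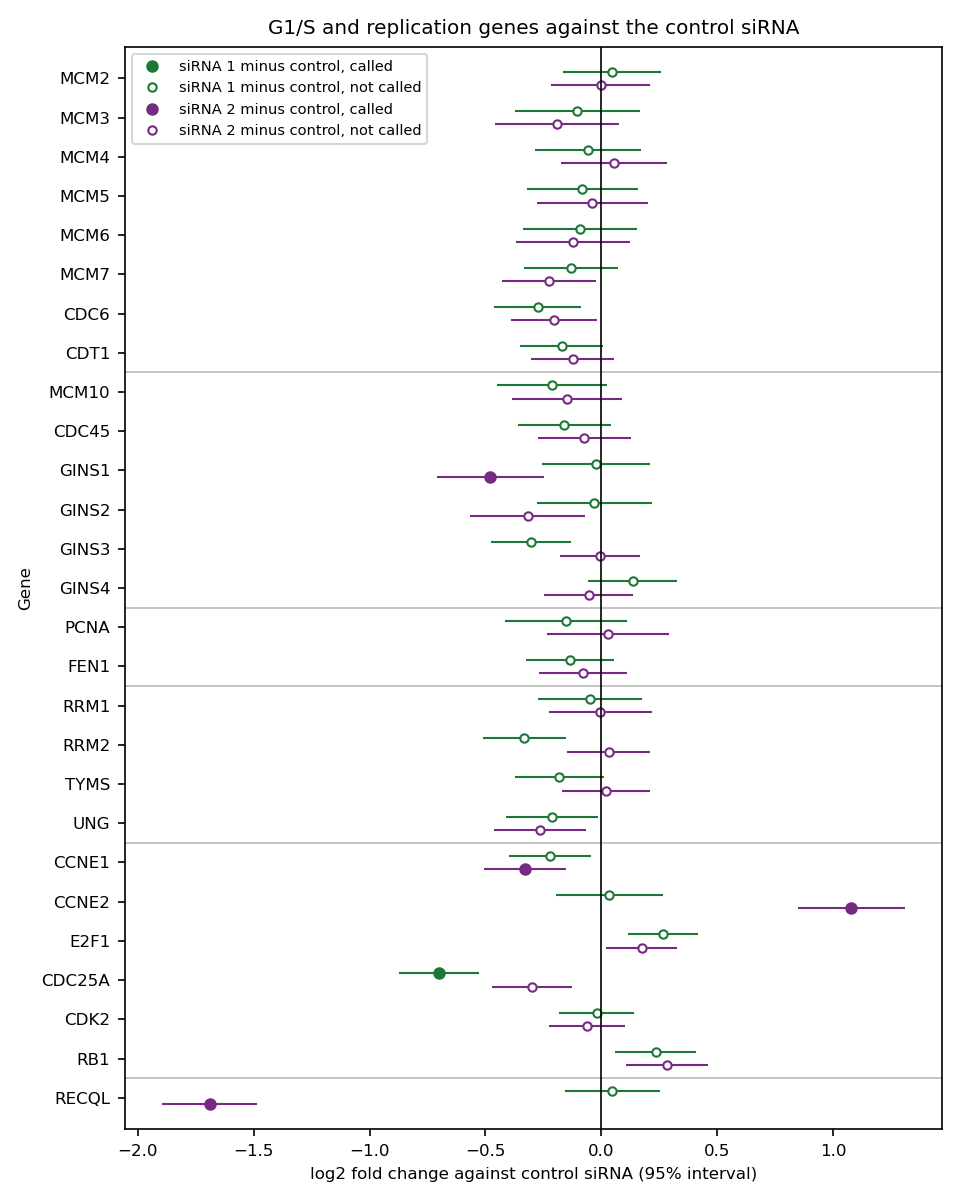
Log2 fold change against the control siRNA (horizontal axis, 95% confidence interval as bars) of the 27 tested genes, for siRNA 1 (green) and siRNA 2 (purple), with filled points for called genes. The genes not called with either siRNA ran from -0.33 to 0.28. RECQL at -1.69, CCNE2 at 1.08 and GINS1 at -0.48 with siRNA 2 and CDC25A at -0.70 with siRNA 1 lie outside that range. CCNE1, called with siRNA 2 at -0.33, lies at its edge.

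A wider set of 113 genes of the same pathways, which was also listed with earlier results known, had 61 genes with a row and 57 tested. Of the 57, 0 were called higher and 2 lower with siRNA 1, where 4 were higher and 13 lower at an unadjusted p under 0.05. Over all tested genes 2.28% and 2.38% were called, and 9.82% and 9.39% had such an unadjusted p. With siRNA 2, 1 was called higher and 5 lower, against 2.59% and 4.23% of all tested genes. At an unadjusted p under 0.05, 6 were higher and 12 lower with siRNA 2, against 10.2% and 12.0%. With siRNA 1 set against siRNA 2, 4 were called higher and 4 lower, against 5.37% and 3.78%, and 11 were higher and 10 lower at an unadjusted p under 0.05, against 13.0% and 10.6%. Their medians against the control were -0.08 and -0.06, and 41 and 34 of the 57 were below 0, against 50.8% and 49.8% of all tested genes.

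Of the 11 genes of the wider set called in any comparison, 5 were on its list of G1/S regulators (CDK6, CCND1, TFDP1, RBL1 and CKS1B). CDK6, a kinase that phosphorylates RB1, read 9.42 and 9.37 with siRNA 1, 8.04 and 8.10 with siRNA 2, and 9.15 and 9.02 with the control siRNA, so the siRNA 2 arrays were low and the siRNA 1 arrays above both control arrays. CDK6 fell by 1.01 with siRNA 2 (SE 0.08, adjusted p = 0.000620) and had 0.31 ± 0.08 with siRNA 1 (adjusted p = 0.0707), a difference of 1.32 between them (adjusted p = 0.000189). CCND1, the cyclin D1 partner of CDK6, read 9.38 and 9.41 with siRNA 1, 8.80 and 8.73 with siRNA 2, and 9.46 and 9.50 with the control. It fell by 0.72 with siRNA 2 (adjusted p = 0.00162), against -0.08 with siRNA 1 (adjusted p = 0.577).

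TFDP1, the DNA-binding partner of E2F1, read 6.25 and 6.29 with siRNA 1, 6.99 and 7.04 with siRNA 2, and 6.69 and 6.84 with the control siRNA, with no overlap between groups. It fell by 0.50 with siRNA 1 (adjusted p = 0.0188) and had 0.25 with siRNA 2 (adjusted p = 0.114), and the siRNAs differed by -0.74 (adjusted p = 0.00179). RBL1, the RB1 relative p107, read 8.61 and 8.78 with siRNA 1, 8.06 and 8.24 with siRNA 2, and 8.38 and 8.71 with the control, and differed between the siRNAs by 0.55 (adjusted p = 0.0422). CKS1B, a CDK-binding subunit, read 7.82 and 7.82 with siRNA 1, 7.46 and 7.51 with siRNA 2, and 7.78 and 7.84 with the control. It fell by 0.32 with siRNA 2 (adjusted p = 0.0368), and siRNA 1 exceeded siRNA 2 by 0.33 (adjusted p = 0.0262). WEE1, the kinase that opposes CDC25 phosphatases, read 8.41 and 8.57 with siRNA 1, 8.08 and 8.25 with siRNA 2, and 8.72 and 8.85 with the control. All 4 MYEOV siRNA arrays were below both control arrays. It fell by 0.62 with siRNA 2 (adjusted p = 0.0118) and had -0.30 with siRNA 1 (adjusted p = 0.141).

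In the other pathway lists, MCM8, an MCM relative active in recombination, read 10.40 and 10.46 with siRNA 1, 10.94 and 11.05 with siRNA 2, and 10.90 and 11.10 with the control siRNA, so only the siRNA 1 arrays were low. MCM8 fell by 0.57 with siRNA 1 (adjusted p = 0.0188), against -0.01 with siRNA 2. The RecQ helicase RECQL4, which takes part in origin firing, read 6.19 and 6.36 with siRNA 1, 6.60 and 6.66 with siRNA 2, and 6.63 and 6.52 with the control. It was lower with siRNA 1 than with siRNA 2, at -0.36 (adjusted p = 0.0447). The deubiquitinase USP1 read 9.18 and 9.12 with siRNA 1, 9.51 and 9.55 with siRNA 2, and 9.21 and 9.29 with the control, and was lower with siRNA 1 than with siRNA 2 too, at -0.38 (adjusted p = 0.0192). For both genes the siRNA 1 arrays were the lowest of the 6. SHMT1, a folate enzyme of thymidylate synthesis, read 7.64 and 7.84 with siRNA 1, 7.31 and 7.47 with siRNA 2, and 7.80 and 8.06 with the control. It fell by 0.54 with siRNA 2 (adjusted p = 0.0407). The histone chaperone ASF1A read 8.58 and 8.52 with siRNA 1, 8.74 and 8.76 with siRNA 2, and 8.43 and 8.46 with the control, and rose by 0.30 with siRNA 2 (adjusted p = 0.0440). In both genes the siRNA 2 arrays lay apart from all others.

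The falls of TFDP1 and MCM8 with siRNA 1 were lost without control replicate 2 or either siRNA 1 array. Those of SHMT1 and CKS1B and the rise of ASF1A with siRNA 2 were lost without any 1 of the 4 arrays compared. They were also lost with the 2 groups alone, which is the same fit as leaving out an siRNA 1 array. The fall of WEE1 with siRNA 2 was lost without control replicate 2 or siRNA 2 replicate 1. Of the differences between siRNAs, those of RBL1, CKS1B and USP1 were lost without any 1 of the 4 MYEOV siRNA arrays. That of MCM8 was lost without either siRNA 1 array or siRNA 2 replicate 2, and that of RECQL4 without any 1 of the 4 MYEOV siRNA arrays. The RECQL4 difference was also lost with the 2 groups alone, which is the same fit as leaving out a control array. With no filter on dim genes, each of the calls in this paragraph was lost as well.

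**Figure D4:**
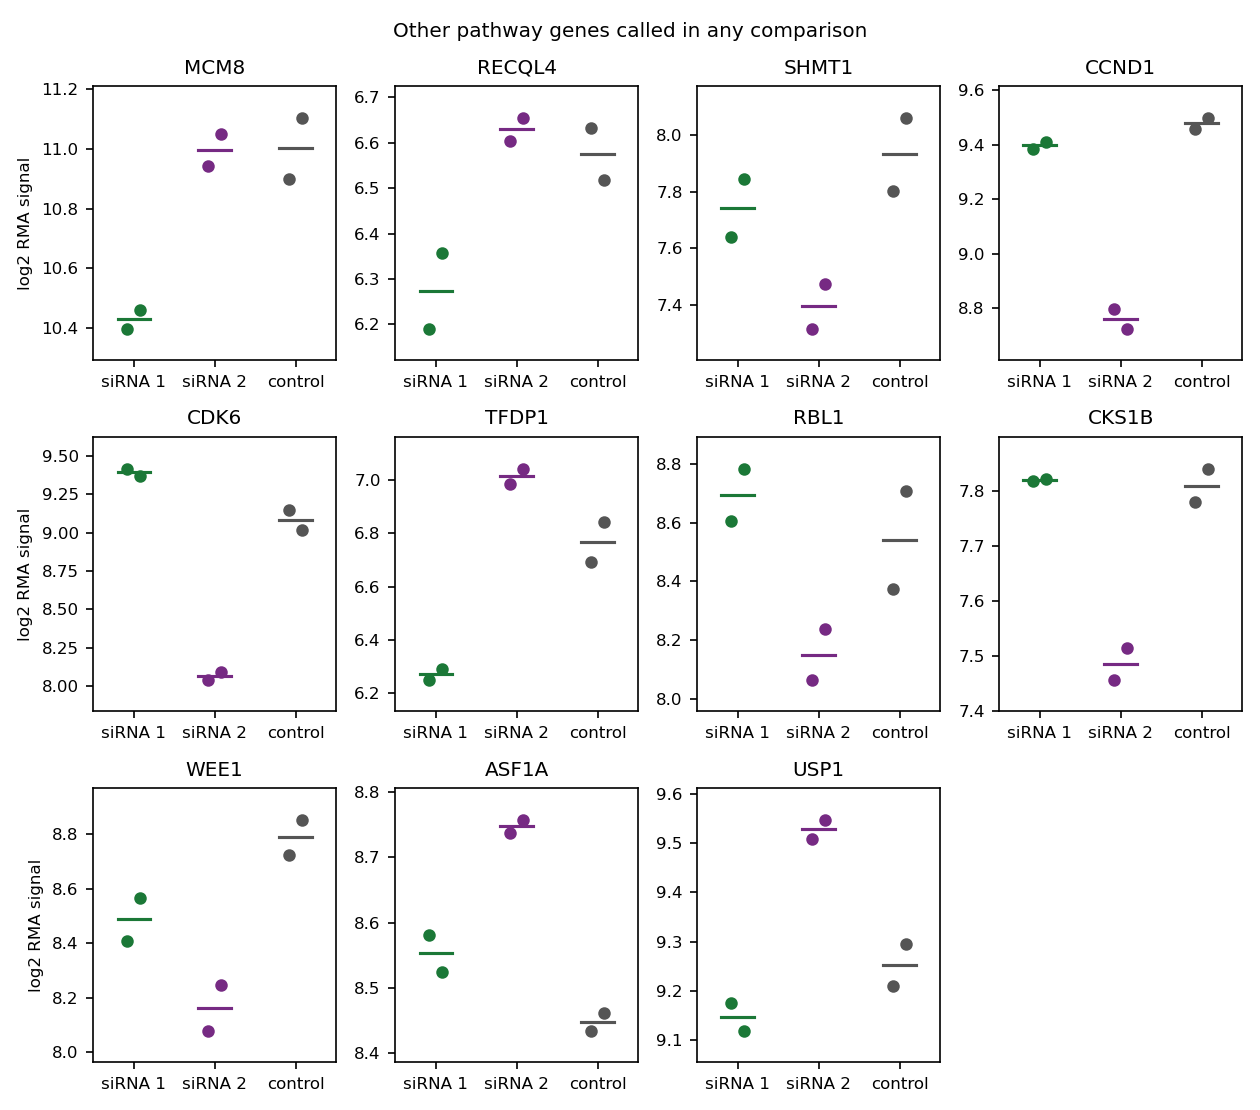
Log2 RMA signal (vertical axis, own range for each gene) of the 11 genes of the wider set called in any comparison, by group, with a point for each array and a line at the mean of 2 arrays. CDK6 and CCND1 are low in both siRNA 2 arrays, and TFDP1 and MCM8 in both siRNA 1 arrays.

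As a comparison within the cell cycle, 16 of 20 G2 and mitosis genes were tested. Limma called 0 of them in any of the 3 comparisons. Of all tested genes it called 2.28% higher and 2.38% lower with siRNA 1, and 2.59% and 4.23% with siRNA 2. Between the siRNAs the shares were 5.37% and 3.78%. At an unadjusted p under 0.05, 0 were higher and 1 lower with siRNA 1, against 9.82% and 9.39% of all tested genes. With siRNA 2, 1 was higher and 2 lower, against 10.2% and 12.0%, and between the siRNAs 1 was higher and 1 lower, against 13.0% and 10.6%. Their medians against the control were -0.08 with siRNA 1 and -0.04 with siRNA 2, beside -0.10 and -0.07 for the G1/S and replication genes. Of the 16 genes, 13 were below 0 with siRNA 1 and 11 with siRNA 2, beside 21 and 20 of the 27. Among all tested genes 50.8% and 49.8% were below 0. Whether the list moved apart from mitotic genes was not tested.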

How the data were processed

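Expression was measured on Affymetrix whole-transcript arrays, 6 in all. The authors deposited log2 signals. Their processing notes name RMA, with no version. RMA corrects background, equalises arrays and summarises probes, and it compresses differences of dim genes. Scanner files and array dates were not used here, so batches could not be examined.

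Of 53617 rows, 16098 had 1 gene symbol in the platform annotation, 0 had several and 37519 had none. All 16098 were found in RefSeq's gene table (GRCh38.p14) and stand for 14884 genes. For 779 genes with several rows, the row with the highest mean was used. The 7442 genes with a mean at or above 5.45, the median of named genes, were analysed by limma (version 3.58.1, under R 4.3.3) with lmFit and eBayes (3 groups, 3 residual and 4.09 prior degrees of freedom), and p-values were adjusted over all of them. With 2 arrays against 2, the smallest exact permutation p (two-sided) is 0.333, and the number of arrays limits the precision. The fit was tested on simulated data.

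The genes and lists were chosen with earlier results of these data known. Any gene of the list could be named, with array values for those called or among the 4 largest changes per direction. Array values of its other tested genes were added for completeness. Genes of the wider set were named where called. No set test was run. Alternatives were other filters, row rules and scalings, fits on 2 groups alone, the replicate number as a block, a trended robust prior and each array left out. Figures were drawn with matplotlib 3.10.9.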

Additional observations from a re-analysis of the deposited data

Results flagged for a closer look

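These genes are given again because the siRNA 1 and siRNA 2 groups, which were meant to lower the same gene, differed from each other at an adjusted p under 0.05 in limma. Of the G1/S and replication genes, siRNA 1 minus siRNA 2 was 1.74 for RECQL, 0.457 for GINS1, -0.364 for RRM2, -0.402 for CDC25A and -1.04 for CCNE2 on the log2 scale. Of the wider set, it was 1.32 for CDK6, 0.636 for CCND1, 0.545 for RBL1, 0.334 for CKS1B, -0.356 for RECQL4, -0.381 for USP1, -0.568 for MCM8 and -0.744 for TFDP1. Against the control, CDK6 and TFDP1 had opposite signs with the 2 siRNAs, at 0.31 and -1.01 and at -0.50 and 0.25. What sets the siRNAs apart was not tested.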

How the results depend on the processing

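No called difference changed its sign under any of the alternatives. Differences near 0 that were not called did, such as those of CCNE2 and RECQL with siRNA 1 (-0.08 and -0.03 without control replicate 1). With no filter on dim genes, 0, 2 and 2 genes of the list were called for siRNA 1 against control, siRNA 2 against control and siRNA 1 against siRNA 2, in place of 1, 4 and 5, and 39, 139 and 195 of all genes in place of 347, 508 and 681. More genes are tested there. Of the list and the wider set, the calls of RECQL, CCNE2, CDK6 and CCND1 were kept, with siRNA 2 and between the siRNAs. That of TFDP1 was kept between the siRNAs, and all others were lost. For siRNA 1 against control, the stricter filter at the 75th percentile called 5 (CDC25A, CDC6, GINS3 and RRM2 lower, E2F1 higher). Over all genes it called 425 of the 3721 it left to be tested. The trended robust prior called 4 (CDC25A, CDC6, GINS3 and RRM2) and 501 of all 7442 genes. The cause was not tested. Both settings also called CDK6 with siRNA 1 (higher), CDC25A (lower), RB1 and USP1 (higher) with siRNA 2, and GINS3 (lower) and WEE1 (higher) in siRNA 1 against siRNA 2. Median centring called CDC25A with siRNA 2, and quantile normalization called GINS3 between the siRNAs. Quantile normalization also lost the calls of CCNE1, CKS1B and SHMT1 with siRNA 2. With every annotated row kept, the calls of CCNE1 with siRNA 2 and of RECQL4 between the siRNAs were lost. For siRNA 2 against control, fitting those 2 groups alone called 2 (CCNE2 and RECQL) and 331 of all genes, with fewer arrays behind the spread. In the wider set, fits on 2 groups alone lost CKS1B, SHMT1 and ASF1A with siRNA 2, and RECQL4 between the siRNAs. With each array left out in turn, and a lone array assumed to vary like the others, the counts ran from 1 to 1, from 2 to 3 and from 2 to 5 in the same order, and over all genes from 58 to 235, from 207 to 331 and from 226 to 618. RECQL and CCNE2 were called with siRNA 2 in each of these. Leaving out an array of the group outside a comparison gave the same fit as the 2 groups alone, so these are not separate checks. The array numbers in the labels are shared between groups, but nothing says what a number marks. Array 2 minus array 1 correlated between groups over all tested genes, with r from 0.205 to 0.265, and 16 of the 27 genes were higher in array 2 in all 3 groups, against 18.0% of all tested genes. With this number as a replicate block, 3, 6 and 7 genes of the list were called. Over all 7442 tested genes the block called 420, 702 and 922, in place of 347, 508 and 681. The block added GINS3 and RRM2 for siRNA 1, CDC25A and GINS2 for siRNA 2, and GINS2 and GINS3 between the siRNAs. In the wider set it added WEE1 with siRNA 1 (adjusted p = 0.0476), RBL1 with siRNA 2 (adjusted p = 0.0257), and SHMT1 and WEE1 between the siRNAs (adjusted p = 0.0220 and 0.0231). Genes near the dim end are limited by signal over background, which RMA compresses.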
